A study of Mus musculus with 6 samples.

Results

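Transcripts of respiratory chain complexes III and IV, of cytochrome c and of the ATP synthase were followed in mouse Th17 cells with and without a deletion of Stim1. The genes were every row whose symbol begins with Uqcr, Atp5 or Cox followed by a digit, plus Cyc1, Cycs, Surf1, Sco1 and Sco2. Of 57 such rows, 52 had a mean of at least 10 normalised read counts over the 6 libraries, and these 52 were among the 11947 genes tested. They comprised 9 genes of complex III, Cycs, 12 subunits and 12 assembly genes of complex IV, the supercomplex factor Cox7a2l, 15 subunits of the ATP synthase and 2 genes that share the Atp5 prefix without encoding a subunit. The other 5 rows were isoforms of complex IV subunits that are typical of other tissues. Cox7b2, Cox8b and Cox8c were at 0 in all 6 libraries, and Cox4i2 and Cox6a2 had means of 0.289 and 0.831.

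The cells were naive CD4 T cells of C57BL/6 mice that were labelled pathogenic Th17 cells after 2 days of stimulation by antibodies to CD3 and CD28, with the cytokines IL-23, IL-6 and IL-1b added. The group called Stat3C here (genotype Stat3CSTOPfl/fl CD4-Cre) expressed a constitutively active STAT3 after Cre, driven by the Cd4 promoter, had removed a stop cassette. The group called Stim1KO Stat3C (genotype Stim1fl/fl Stat3CSTOPfl/fl CD4-Cre) carried the same activated STAT3 and had in addition lost the floxed part of Stim1, the calcium sensor of the endoplasmic reticulum that opens store-operated calcium channels. Both groups thus share the hyperactive STAT3, and neither shows how wild-type cells behave. There were 3 libraries in each group, and the labels do not say whether they came from separate mice. Sex-linked genes, given below, show that the libraries of a group did not all come from the same mouse. Whether replicates 1 and 2 did is not known, so the p-values rest on the variation among libraries, some of which may be technical.

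Complex III takes electrons from ubiquinol and passes them to cytochrome c, complex IV passes them from cytochrome c to oxygen, and both pump protons across the inner mitochondrial membrane. The ATP synthase lets these protons flow back through its membrane part, Fo, and uses the energy to make ATP in its catalytic head, F1. Activated T cells use this machinery together with glycolysis, and calcium entering mitochondria is known to stimulate the enzymes that feed the chain.

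Recovered read totals were 23092044 to 51347367 in Stat3C and 16009755 to 22519269 in Stim1KO Stat3C, with Stim1KO Stat3C replicate 1 the shallowest. Stim1 checked the labels, at 1999, 1969 and 1931 normalised counts in Stat3C cells, against 811, 794 and 687 in Stim1KO Stat3C cells (log2 fold change -1.37, SE 0.08, limma adjusted p = 0.000287). Stat3C replicate 2 stood furthest from the other libraries, with a median distance of 0.861 (root mean square, log2 scale) against 0.615 to 0.720 for the others. Xist set replicate 3 of each group apart, at 8362 and 11549 against 1.37 to 3.53 in the other 4 libraries. The summed level of the Y-linked genes Ddx3y, Kdm5d, Uty and Eif2s3y ran the other way. It was 0 in Stat3C replicate 3 and 2.99 in Stim1KO Stat3C replicate 3, against 2829 to 3699 in the other 4 libraries. Replicate 3 of each group thus had the pattern of females and the others that of males. The summed level of 9 markers of T and Th17 cells, all detected, was 41244 to 47018 in Stat3C and 35599 to 38316 in Stim1KO Stat3C. Its members did not move together, the cytokines Il17a (2593 to 3919 against 409 to 586) and Il17f (9805 to 12993 against 2874 to 3532) being lower and Cd4, Cd3e and Cd3g higher in every Stim1KO Stat3C library. Cd4 and Cd3e, which define the cell type, were present throughout, with Cd4 at 7834 to 8483 and 9288 to 11543. Markers of other cells were lower in Stim1KO Stat3C. The summed ranges were 101 to 306 against 16.1 to 35.8 for 4 B cell markers, 277 to 453 against 111 to 159 for 2 CD8 markers and 17.4 to 166 against 5.97 to 17.2 for 5 myeloid markers, whereas the 3 NK cell markers overlapped (4.84 to 13.6 and 2.15 to 13.7). The B cell gene Ms4a1 and the myeloid genes Csf1r and Emr1 were at 0 in all 3 Stim1KO Stat3C libraries. Csf1r and Emr1 were also at 0 in Stat3C replicate 3. The myeloid markers were highest in Stat3C replicate 2, the library that stood furthest apart. In Stat3C replicates 1, 2 and 3, Emr1 was at 3.03, 26.7 and 0 and Itgam at 14.7, 72.5 and 7.75. These marker levels move with the group in every result below, and their part in it was not tested.

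In Stim1KO Stat3C, 8 of the 52 genes fell and 0 rose at an adjusted p of 0.05 in the limma fit over all genes. These were Uqcr10, Uqcr11, Cyc1 and Uqcrc1 of complex III, Cox7c, Cox8a and Cox6b2 of complex IV, and the assembly gene Cox15. That is 15.4% of the genes, beside 4.96% of all tested genes called lower and 8.62% called higher. At an unadjusted p of 0.05, 21 of the 52 genes were lower and 1 was higher, beside 14.0% and 17.0% of all genes. On the recovered reads, edgeR called 6 lower (4.7% of all genes) and 0 higher, and DESeq2 called 13 lower (8.4%) and 0 higher. All values are normalised read counts, and each log2 fold change is the Stim1KO Stat3C mean less the Stat3C mean of log2(value + 1), which understates changes at low counts. In bulk RNA, fewer cells of a type and less RNA per cell cannot be told apart.

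The fold changes leaned one way beyond the called genes. The log2 fold change was negative in 47 of 52 genes, with a median of -0.12, beside 50.2% negative and a median of -0.001147 over all tested genes. The number negative fell to 42 without Stim1KO Stat3C replicate 1 and to 42 with library quality weights. In 22 of the 52 genes (42.3%) all 3 Stim1KO Stat3C values lay under all 3 Stat3C values, beside 16.4% of all genes. In 1 gene, Atp5sl, all lay above, beside 19.2% of all genes. Well-expressed genes are called more readily, and most of these genes are well expressed. Among the 4647 tested genes with a mean of at least 1000, 7.62% were called lower, beside 7 of the 40 genes of the complexes with such a mean (17.5%).

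**Figure D1:**
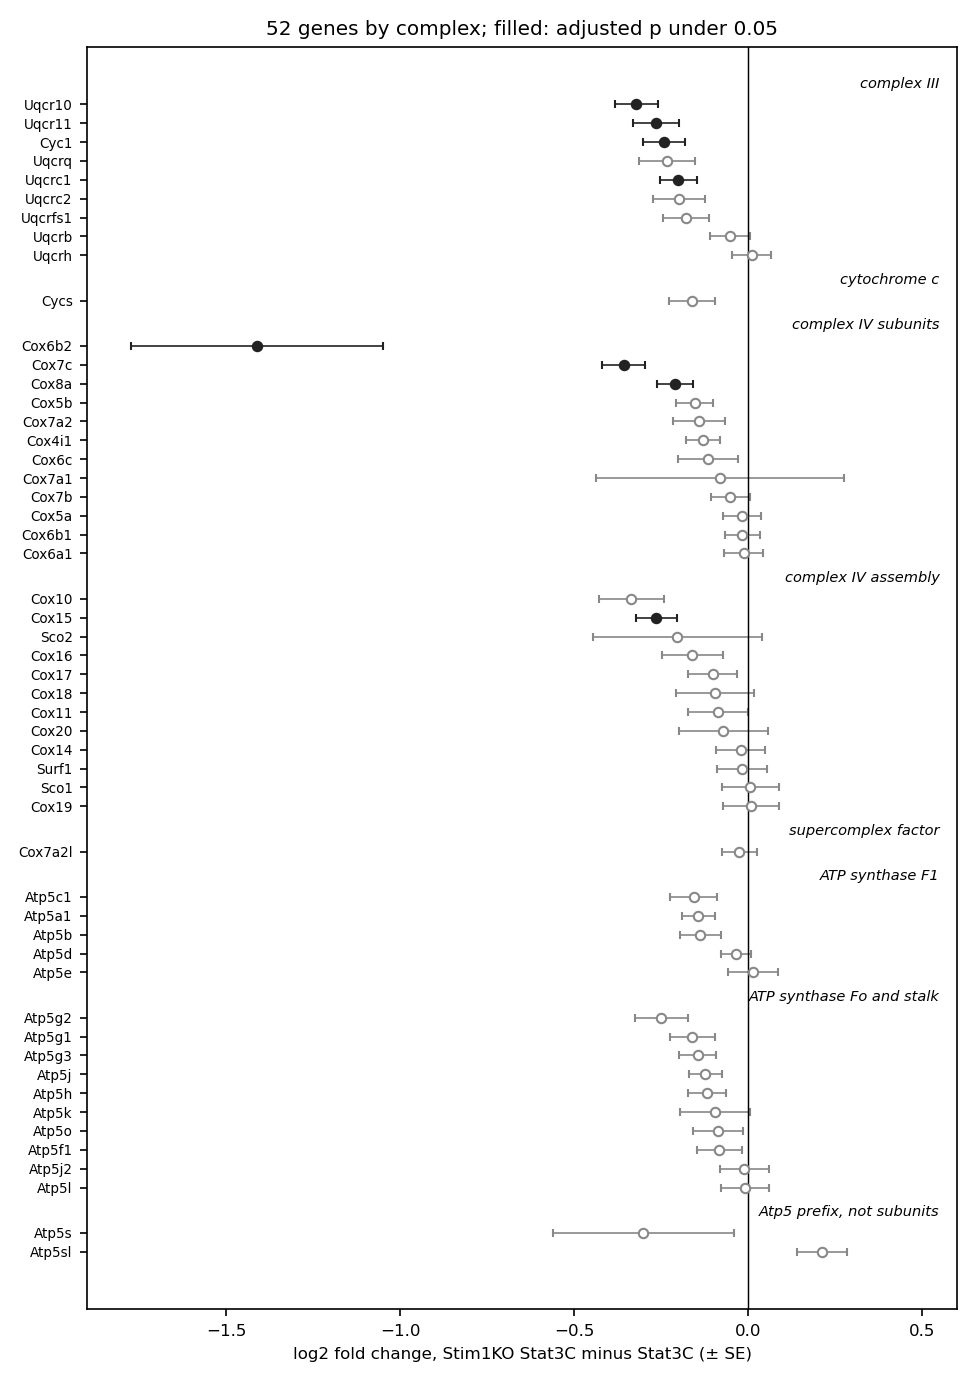
Log2 fold change (Stim1KO Stat3C minus Stat3C, horizontal axis) of each of the 52 genes, grouped by complex, with bars of 1 SE; filled points passed an adjusted p of 0.05 in limma. The 8 filled points all lie left of 0, and 47 of the 52 points have a negative value.

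The count of called genes changed with the libraries used, while the median did not turn. A fit with 1 library fewer has fewer degrees of freedom, and the share called over all genes changed as well. With 1 library fewer, 2 genes were called lower without Stat3C replicate 1, 1 without Stat3C replicate 3, and 1 when Stim1KO Stat3C replicate 1 or 2 was omitted. The shares of all genes called lower in these fits were 1.17%, 1.29%, 1.66% and 1.79%. Without Stim1KO Stat3C replicate 3 the count was 5 (3.0% of all genes), and without Stat3C replicate 2, the library that stood apart, it was 12 (9.98% of all genes). Cox7c was the gene called in each of these fits. The median log2 fold change of the 52 genes lay between -0.15 and -0.09 over all 18 alternatives. The other fits on 6 libraries gave 8 called genes at a pseudocount of 0.5 or 5 (4.96% and 4.92% of all genes), 8 with Xist as a covariate (5.3%), 6 without a filter on low values (2.89%), 9 with a filter at a mean of 50 (6.08%) and 9 with TMM scaling (5.19%). Quantile normalization gave 11 (6.39%) and limma without a variance trend 1 (1.87%), while edgeR without Stim1KO Stat3C replicate 3 gave 4 (2.37%). In the fit with library quality weights 17 genes were called lower and 1, Atp5sl, higher, beside 15.1% of all genes called lower.

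**Figure D2:**
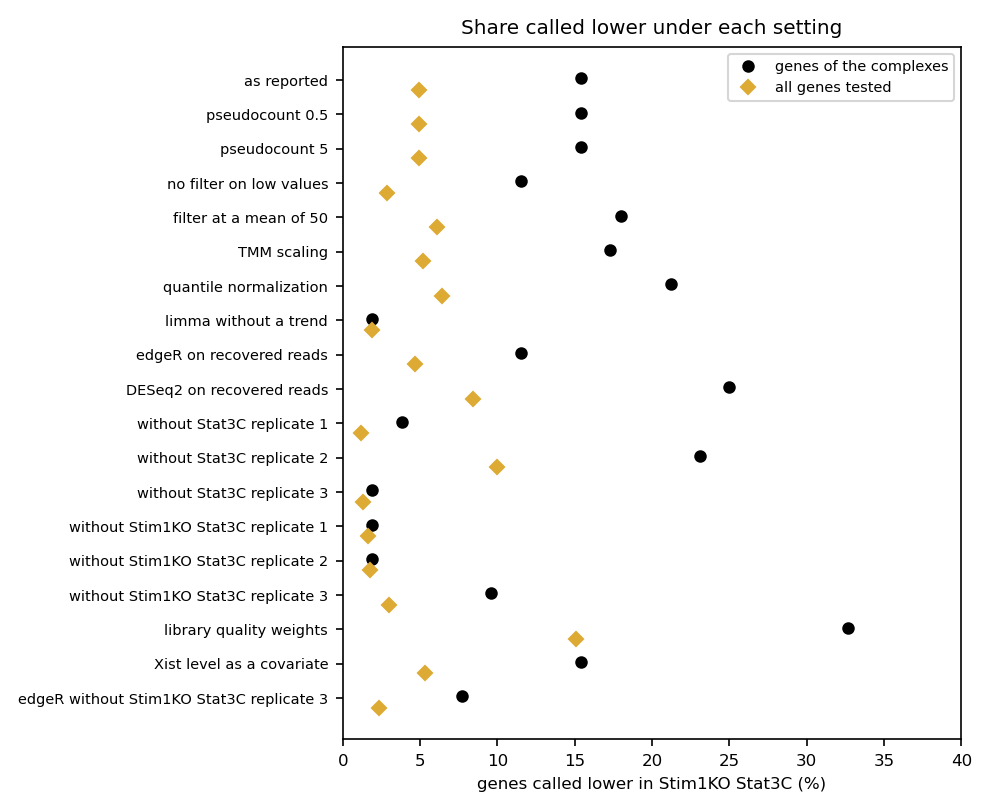
Share of genes called lower in Stim1KO Stat3C (horizontal axis, %) as reported and under 18 alternative settings, for the genes of the complexes (circles) and for all genes tested (diamonds). The shares are 15.4% and 4.96% as reported, and the circle falls to 1.92%, close to the diamond, without a variance trend and without any of 3 single libraries.

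Complex III had the lowest median of the classes, and 4 of its 9 genes fell. That is 44.4%, beside 4.96% of all genes and 7.62% of genes with a mean of at least 1000, which all 9 have. Its median log2 fold change was -0.20, and 8 of 9 values were negative. In 5 genes (55.6%) all Stim1KO Stat3C values lay under all Stat3C values, beside 16.4% of all genes. Among genes with a mean of at least 1000 this share was 21.2%. Uqcr10, a small subunit of the membrane part, stood at 2820, 2787 and 3088 in Stat3C and at 2243, 2285 and 2422 in Stim1KO Stat3C. The groups were well apart, and the log2 fold change was -0.32 (SE 0.06, adjusted p = 0.0143). Uqcr11, the smallest accessory subunit, stood at 1947, 2181 and 1981 and at 1669, 1642 and 1766 (-0.27, SE 0.07, adjusted p = 0.0338). Cyc1, the cytochrome c1 that hands electrons to cytochrome c, stood at 4731, 4611 and 4983 and at 3855, 3962 and 4297 (-0.24, SE 0.06, adjusted p = 0.0335). Uqcrc1, a core subunit on the matrix side, stood at 6215, 6113 and 6495 and at 5194, 5486 and 5694 (-0.20, SE 0.05, adjusted p = 0.0439). In each of these 4 genes the lowest Stat3C library lay above the highest Stim1KO Stat3C library. Stim1KO Stat3C replicate 3 was the highest library of its group in all 4.

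The 5 other genes of complex III did not pass the test. Uqcrq, which encodes an accessory subunit, stood at 2976, 3255 and 3443 and at 3020, 2604 and 2608 (-0.23, adjusted p = 0.0930), so that the highest knockout library lay within the Stat3C range. Uqcrfs1, the Rieske iron-sulfur protein, gave -0.18 (adjusted p = 0.112), and Uqcrc2, the second core subunit, gave -0.20 (adjusted p = 0.118) with no overlap between the groups. Uqcrb was at -0.05, and Uqcrh, the hinge protein that binds cytochrome c1, at 0.01, a value that turned negative with DESeq2, with edgeR without Stim1KO Stat3C replicate 3 and without any of 3 single libraries. Within the complex, the groups of Uqcrh overlapped (3874 to 4140 and 3814 to 4178) while those of its partner Cyc1 did not. Without Stat3C replicate 3 or Stim1KO Stat3C replicate 1 or 2, 0 genes of complex III were called, 1 was called without Stat3C replicate 1, and omitting Stim1KO Stat3C replicate 3 left 2. Cycs, the cytochrome c that carries electrons from complex III to complex IV, stood at 7583, 7116 and 7907 and at 6441, 6490 and 7286. Its log2 fold change was -0.16 (adjusted p = 0.141), and 1 Stim1KO Stat3C library lay above the lowest Stat3C library.

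**Figure D3:**
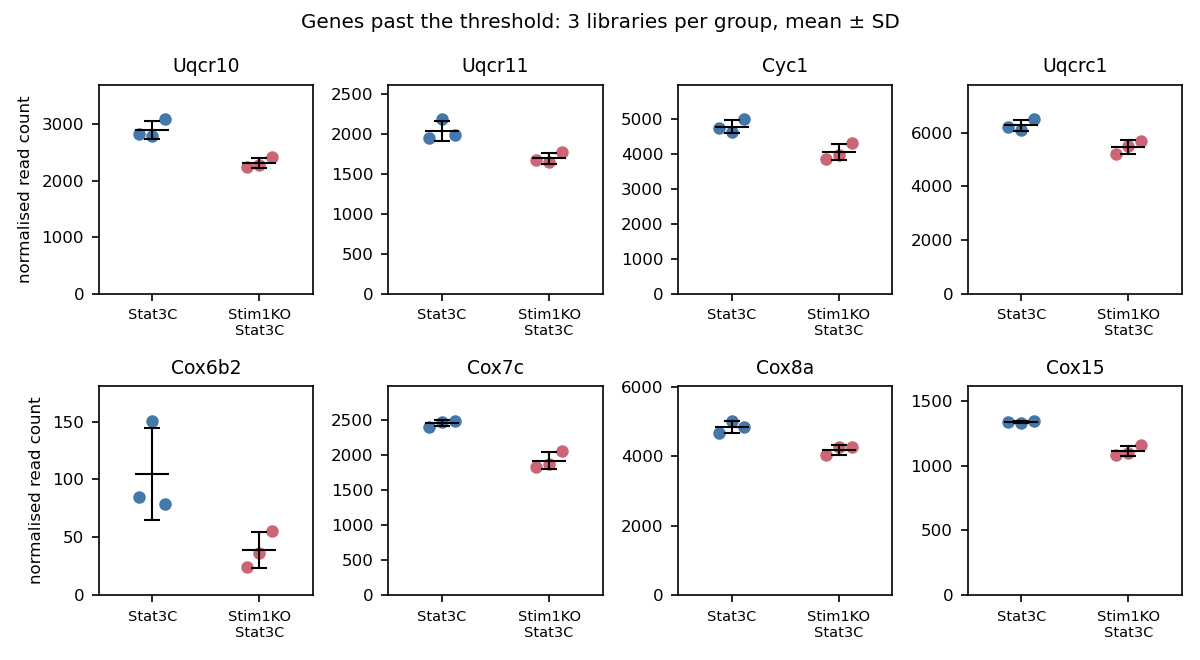
Normalised read counts in each of the 6 libraries (vertical axis, on a scale of its own in each panel) for the 8 genes called lower, 1 point per library, with lines for the mean of each group and 1 SD on either side. In all 8 panels the 3 Stim1KO Stat3C values lie below the 3 Stat3C values.

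In complex IV, 3 of the 12 nuclear subunits fell (25.0%, beside 4.96% of all genes). All 12 had a negative log2 fold change, with a median of -0.12. Cox7c, a small membrane subunit, stood at 2408, 2480 and 2495 in Stat3C and at 1834, 1871 and 2064 in Stim1KO Stat3C. The gap between the groups was wide against the spread within them (-0.36, SE 0.06, adjusted p = 0.00988), and Cox7c was called in 18 of 18 alternatives. Cox8a, the ubiquitous form of the smallest subunit, stood at 4675, 5016 and 4837 and at 4022, 4248 and 4276 (-0.21, SE 0.05, adjusted p = 0.0338). Without Stat3C replicate 1, Stat3C replicate 3, or Stim1KO Stat3C replicate 1 or 2, Cox7c was the 1 subunit of complex IV still called.

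Cox6b2, the form of subunit 6b known from testis, had the largest fold change of the 52 genes. It stood at 84.4, 151 and 78.5 in Stat3C and at 24.7, 36.5 and 55.7 in Stim1KO Stat3C (-1.41, SE 0.36, adjusted p = 0.0390). The groups did not overlap, but the levels were low and the libraries of each group were spread widely. It lost its call in 9 of 18 alternatives, among them edgeR, the fit with Xist as a covariate and the fits without Stat3C replicate 1, Stat3C replicate 3, or Stim1KO Stat3C replicate 1 or 2, and its log2 fold change ranged from -1.78 to -1.12. Its ubiquitous counterpart Cox6b1 stood at 4140, 4484 and 4418 and at 4296, 4263 and 4322 (-0.02, adjusted p = 0.843). Per length of transcript, Cox6b2 made up 2.64%, 4.27% and 2.31% of the Cox6b pair in Stat3C and 0.757%, 1.13% and 1.68% in Stim1KO Stat3C. The pair was thus almost all Cox6b1 in every library.

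In the other isoform pair, of subunit 7a, the shares overlapped between the groups. At the low counts of Cox7a1 (log2 fold change -0.08, SE 0.36) this does not show that the proportions were kept. The heart and muscle form Cox7a1, the gene with the lowest mean of the 52 (17.9), made up 0.816% ± 0.061 (SD, n = 3) of the pair per length in Stat3C and 0.850% ± 0.097 in Stim1KO Stat3C. Cox7a1 stood at 17.7, 20.1 and 17.4 and at 15.1, 19.3 and 17.9, and Cox7a2 at 3718, 3784 and 3778 and at 3117, 3342 and 3800. Cox7a2 gave -0.14 (adjusted p = 0.234), with 1 Stim1KO Stat3C library above all 3 Stat3C libraries. Of the subunits with a single measured form, Cox5b gave -0.15 (adjusted p = 0.0950) and Cox4i1, the subunit 4 through which the complex is regulated, -0.13 (adjusted p = 0.124), both without overlap between the groups. Cox4i1 had the highest mean of the subunits of complex IV, at 6729, 6811 and 7326 and at 6369, 6359 and 6327. Cox6c was at -0.12, Cox7b at -0.05, Cox5a at -0.02 and Cox6a1 at -0.01, all with overlapping groups. The sign of Cox6a1, Cox6b1 and Cox7a1 turned positive in 2 alternatives each, and that of Cox5a in 1, without Stim1KO Stat3C replicate 1. Cox7a2l, a factor known from work on supercomplexes of complexes III and IV, gave -0.03 (adjusted p = 0.761).

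Among the 12 genes for the assembly of complex IV, 1 fell, which is 8.33% beside the 4.96% of all genes, and the median was -0.09. It was Cox15, which converts heme O to the heme A of complex IV, at 1338, 1331 and 1349 in Stat3C, against 1086, 1100 and 1159 in Stim1KO Stat3C. The spread within each group was small (SD 8.90 and 39.0), and the log2 fold change was -0.26 (SE 0.06, adjusted p = 0.0236). Cox10, the enzyme of the preceding step that makes heme O, stood at 1661, 1381 and 1743 and at 1189, 1294 and 1293. The groups did not overlap, and the fold change of -0.34 was larger than that of Cox15 but its SE of 0.09 was too, so that the adjusted p was 0.0513. Cox10 passed in 7 of 18 alternatives, and Cox15 in 13. Without Stat3C replicate 1, Stat3C replicate 3, or Stim1KO Stat3C replicate 1 or 2, 0 assembly genes were called, and without Stat3C replicate 2 both were.

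The copper chaperones and the other assembly genes gave smaller values. Cox17, the chaperone that supplies copper in the intermembrane space and the assembly gene with the highest mean, stood at 1712, 1738 and 1967 and at 1730, 1615 and 1696 (-0.10, adjusted p = 0.361). Sco1, which inserts copper into subunit 2, was at 0.01 (adjusted p = 0.969), and Cox19 at 0.01 (adjusted p = 0.957). Both signs turned negative under quantile normalization and with DESeq2. Sco2, the paralogue of Sco1, stood at 160, 184 and 166 and at 97.2, 179 and 182, with 1 Stim1KO Stat3C library far below the other 5 (-0.20, adjusted p = 0.603, and 0.09 without that library). Cox16 gave -0.16 (adjusted p = 0.255), but 77.5% of its exonic bases lie in another gene on the same strand (Gm20498), and 68.3% of those of Sco2 lie in Tymp, so their counts are uncertain. Surf1, an assembly factor mutated in Leigh syndrome, was at 608, 617 and 600 and at 605, 578 and 618 (-0.02, adjusted p = 0.878), and its sign turned without Stim1KO Stat3C replicate 2.

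In the ATP synthase 0 of 15 subunits passed the test in limma, although 14 of 15 log2 fold changes were negative and the median, -0.12, equalled that of the complex IV subunits to 2 decimals. At an unadjusted p of 0.05, 6 of the 15 were lower and 0 higher, beside 14.0% and 17.0% of all genes. With edgeR 0 were called, and with DESeq2 2 were, Atp5a1 and Atp5g2. In 8 of 15 subunits (53.3%) all Stim1KO Stat3C values lay under all Stat3C values. This held for 16.4% of all genes and for 21.2% of genes with a mean of at least 1000, which all 15 subunits have. Calls for the 15 subunits also appeared under quantile normalization (2), with library quality weights (4) and without Stat3C replicate 2 (1, Atp5a1).

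The catalytic head F1 held the most abundant transcripts of the 52 genes. Atp5b, the catalytic beta subunit, stood at 47637, 46158 and 49590 in Stat3C and at 41128, 43002 and 46272 in Stim1KO Stat3C (-0.14, adjusted p = 0.159). The highest knockout library lay just above the lowest Stat3C library. Atp5a1, the alpha subunit, stood at 30903, 29577 and 31175 and at 26881, 27958 and 28084 (-0.14, adjusted p = 0.0826), with the groups apart. Atp5c1, the rotating gamma subunit, gave -0.16 (adjusted p = 0.162). Atp5d (delta) was at -0.03 and Atp5e (epsilon) at 0.01 (adjusted p = 0.913), a sign that reversed without Stat3C replicate 1 or Stim1KO Stat3C replicate 1.

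In the membrane part and stalk, the 2 genes closest to a call both encode subunit c. Subunit c forms the proton-driven ring, and Atp5g1, Atp5g2 and Atp5g3 encode the same mature protein behind different import sequences. Atp5g2 stood at 5233, 5403 and 5273 and at 3954, 4630 and 4835 (-0.25, SE 0.08, adjusted p = 0.0662). Atp5g3 stood at 7297, 7086 and 7562 and at 6253, 6719 and 6872 (-0.15, adjusted p = 0.115), and Atp5g1 at 3611, 3936 and 3801 and at 3132, 3445 and 3583 (-0.16, adjusted p = 0.141). In all 3 genes the groups did not overlap, Stim1KO Stat3C replicate 1 was the lowest library and replicate 3 the highest of its group. Atp5j, the coupling factor 6 of the stalk, gave -0.12 (adjusted p = 0.131), also without overlap. Atp5f1, the stalk subunit b and the most abundant of the remaining membrane and stalk genes, gave -0.08 (adjusted p = 0.408). Atp5j2 and Atp5l were both at -0.01, and each turned positive in 4 alternatives.

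The 2 genes that carry the Atp5 prefix without encoding a subunit moved in opposite directions. Atp5sl, now named Dmac2 and known for the assembly of complex I, stood at 578, 579 and 549 in Stat3C and at 674, 652 and 651 in Stim1KO Stat3C. It was the 1 gene of the 52 with every Stim1KO Stat3C value above every Stat3C value, at a log2 fold change of 0.21 (adjusted p = 0.0874). Atp5s stood at 45.0, 41.8 and 39.7 and at 39.7, 35.4 and 27.9 (-0.30, SE 0.26, adjusted p = 0.463).

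Seen by library, the classes did not shift as 2 even blocks. The median deviation of the 52 genes from their 6-library means (log2) was 0.05, 0.06 and 0.08 in Stat3C replicates 1, 2 and 3 and -0.13, -0.06 and -0.01 in Stim1KO Stat3C replicates 1, 2 and 3. Stim1KO Stat3C replicate 1, the shallowest library, was the lowest of the 6 in 32 of 52 genes (61.5%), beside 22.9% of all genes. Stat3C replicate 3 was the highest in 26 of 52, beside 19.6% of all genes. In the ATP synthase the median deviation of Stim1KO Stat3C replicate 1 was -0.15 and that of replicate 3 was 0.003, close to the 6-library mean. Without Stim1KO Stat3C replicate 1 the median log2 fold change was -0.17 for complex III, -0.07 for the complex IV subunits, -0.06 for the assembly genes and -0.09 for the ATP synthase, all still negative. Depth moves with this library, and its part in the result was not tested.

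**Figure D4:**
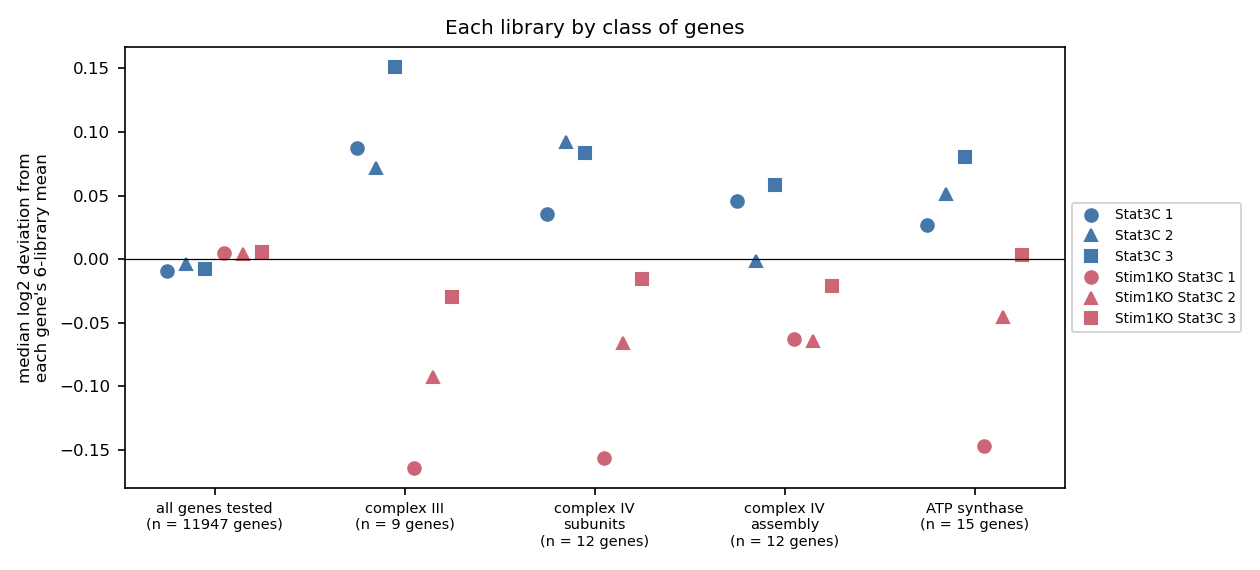
Median deviation of a class's genes from each gene's mean over the 6 libraries (vertical axis, log2) for all genes tested and for 4 classes, 1 marker per library. All genes lie close to 0 in every library, whereas in the 4 classes the Stim1KO Stat3C libraries sit lower, replicate 1 lowest in 3 of them.

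Together, the 52 genes made up 1.04%, 1.05% and 1.07% of the summed normalised counts in Stat3C and 0.934%, 0.964% and 0.992% in Stim1KO Stat3C. The groups did not overlap. The ATP synthase held the larger part of this, 0.615% ± 0.008 (SD, n = 3) against 0.564% ± 0.021. Complex III held 0.155% ± 0.003 against 0.136% ± 0.004, and the complex IV subunits 0.188% ± 0.005 against 0.174% ± 0.004. These sums describe the classes and carry no test.

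Levels of different genes were compared per kilobase of transcript, over the shortest principal transcript. Atp5b was highest, at 24945 ± 898 (SD, n = 3) normalised counts per kilobase in Stat3C and 22686 ± 1359 in Stim1KO Stat3C, followed by Atp5a1 (12364 ± 346 and 11186 ± 268) and Atp5g2 (12025 ± 201 and 10143 ± 1046). The place of Atp5g2 depends on the transcript chosen, since over its longest principal transcript it came to 7254 and 6119, below Atp5g3 (10245 and 9264). Cox4i1 was the highest subunit of complex IV (9336 ± 435 and 8526 ± 29.6). Uqcrq was the highest of complex III in Stat3C (7961 ± 580), but its principal transcripts differ in length, and over the longest it came to 2120. Uqcrh, at 7247 ± 278 in Stat3C and 7300 ± 332 in Stim1KO Stat3C, has a single principal length. The assembly genes lay far lower, at 148 to 945 in Stat3C apart from Cox17 (4067 ± 316), which came to 489 over its longest principal transcript and so lay within that range. Cox6b2 (225 ± 86.1 and 83.8 ± 33.7), Cox7a1 (46.9 ± 3.77 and 44.4 ± 5.53) and Atp5s (28.4 ± 1.80 and 23.1 ± 4.04) were among the lowest 4 of the 52 genes. Over the shortest transcripts the called genes spanned the range, from Cox8a at rank 6 of 52 to Cox6b2 at rank 49.

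**Figure D5:**
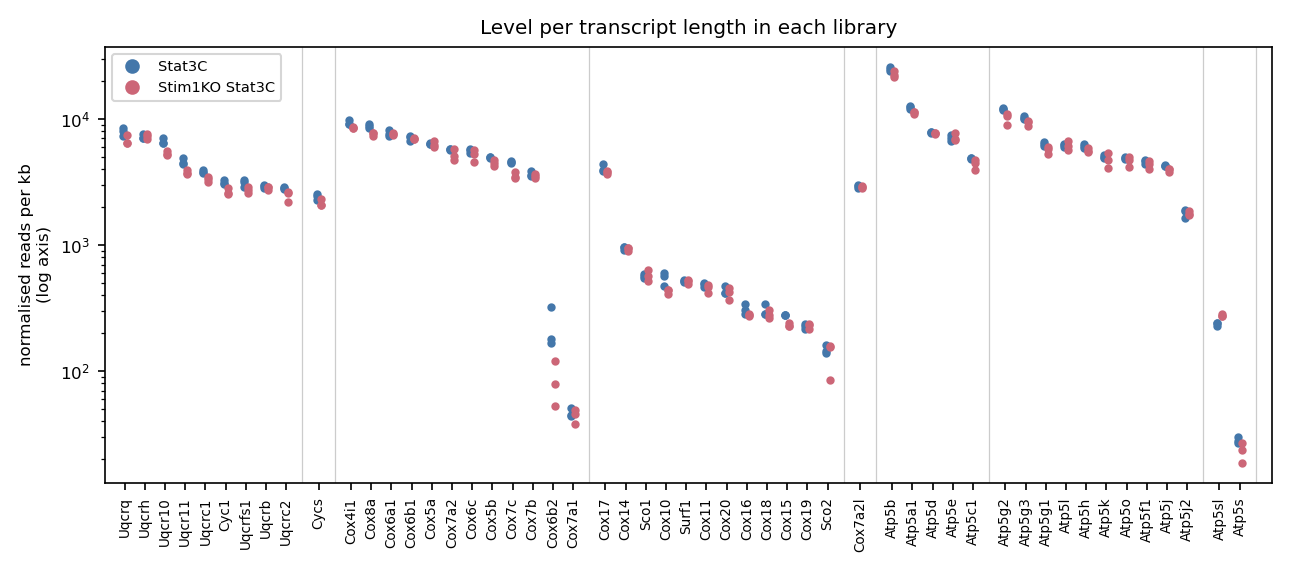
Level of each of the 52 genes in normalised counts per kilobase of transcript (vertical log axis), 1 point per library, with grey lines between the classes. Atp5b is highest, with a Stat3C mean of 24945, and Atp5s lowest, with a Stat3C mean of 28.4.

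The 8 called genes lie on 7 chromosomes (GRCm38, GENCODE release 21). Uqcr10 is at chr11:4701973-4704342 (minus strand), Uqcr11 at chr10:80402997-80406830 (minus), Cyc1 at chr15:76343523-76346260 (plus) and Uqcrc1 at chr9:108936633-108949623 (plus). Cox7c is at chr13:86044816-86046904 (minus), Cox6b2 at chr7:4751792-4753094 (minus), Cox8a at chr19:7215153-7217616 (minus) and Cox15 at chr19:43733254-43753000 (minus). Of these called genes, only Cox15 shares exonic bases with other genes, 9.4% of them, all on the opposite strand (Cutc and Entpd7). Among the 52 genes, 8 that were not called share more than 20% of their exonic bases with genes on the opposite strand. They include Uqcrc2 (26.6%), Cox5a (41.7%), Cox4i1 (20.1%), Atp5l (24.4%) and Atp5f1 (21.0%). Whether the authors counted by strand is not stated in the labels or processing notes, so the counts of genes with such overlap are uncertain.

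Nuclear genes of the respiratory chain are known for promoters that hold sites of the factors NRF1, GABPA (an ETS factor), NF-Y and Sp1. The 250 bases before the start site (RefSeq, GRCm38.p6) were available for 43 of the 52 genes and 7 of the 8 called ones, and for 8938 tested genes. Both strands were searched for GCGCA and GCGC with any 1 base between them (NRF1), CCGGAAG (ETS), CCAAT (NF-Y), GGGCGGG (Sp1) and AANATGGCG (YY1). The ETS letters were in 11 of 43 promoters (25.6%, beside 14.7% of the tested genes) and the NF-Y letters in 21 (48.8%, beside 37.0%). The NRF1 letters were in 4 (9.30%, beside 8.73%), the Sp1 letters in 10 (23.3%, beside 44.2%), and the YY1 letters in 0 (beside 2.28%). Of the 7 called genes, 1 held the ETS letters (Uqcr11), 3 the NF-Y letters (Uqcr10, Cox8a and Cox6b2), 1 the Sp1 letters (Cox6b2) and 0 those of NRF1. A match describes the letters and is not a binding site.

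Below are 4 of the promoters of called genes, and that of Cox6a1, a subunit at -0.01 that holds 4 of the 5 motifs. Uqcr10 and Cox6b2 both hold the NF-Y letters, Cox6b2 also those of Sp1, Uqcr11 those of ETS, and Cox7c none. These promoters were picked with their matches known. The sequences run 5′ to 3′ on the strand of the gene and end at the base before the start site, with matches in capitals. Their positions are chr11:4704345-4704594 for Uqcr10, chr10:80406822-80407071 for Uqcr11, chr13:86046796-86047045 for Cox7c, chr7:4753095-4753344 for Cox6b2 and chr5:115348959-115349208 for Cox6a1, all on the minus strand. The NF-Y match of Uqcr10 begins 10 bases before the start and the ETS match of Uqcr11 66 bases before it. Cox7c, called in every alternative, has none of the 5 motifs in the bases searched. Its GENCODE start, chr13:86046904, lies inside those bases, so fewer than 250 bases before that start were searched. The GENCODE starts of Uqcr11 and Cox6a1 also lie inside their searched bases.
Uqcr10: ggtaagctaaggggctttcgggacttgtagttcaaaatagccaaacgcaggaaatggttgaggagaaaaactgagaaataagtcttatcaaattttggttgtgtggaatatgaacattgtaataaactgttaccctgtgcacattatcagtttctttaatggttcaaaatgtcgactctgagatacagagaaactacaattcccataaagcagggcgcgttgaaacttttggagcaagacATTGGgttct
Uqcr11: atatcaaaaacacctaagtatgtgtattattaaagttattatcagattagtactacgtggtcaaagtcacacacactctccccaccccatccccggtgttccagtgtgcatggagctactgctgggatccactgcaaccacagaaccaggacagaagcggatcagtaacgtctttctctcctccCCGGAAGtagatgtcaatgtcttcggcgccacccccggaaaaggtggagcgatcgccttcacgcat
Cox7c: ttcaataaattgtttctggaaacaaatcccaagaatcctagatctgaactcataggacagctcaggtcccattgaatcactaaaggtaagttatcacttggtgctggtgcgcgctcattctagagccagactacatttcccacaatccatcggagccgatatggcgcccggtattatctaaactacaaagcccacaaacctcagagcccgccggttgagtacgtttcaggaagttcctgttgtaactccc
Cox6b2: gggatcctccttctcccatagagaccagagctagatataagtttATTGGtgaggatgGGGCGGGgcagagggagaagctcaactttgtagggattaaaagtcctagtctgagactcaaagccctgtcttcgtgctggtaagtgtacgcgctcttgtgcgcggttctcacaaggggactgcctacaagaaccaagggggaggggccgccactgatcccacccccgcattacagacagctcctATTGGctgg
Cox6a1: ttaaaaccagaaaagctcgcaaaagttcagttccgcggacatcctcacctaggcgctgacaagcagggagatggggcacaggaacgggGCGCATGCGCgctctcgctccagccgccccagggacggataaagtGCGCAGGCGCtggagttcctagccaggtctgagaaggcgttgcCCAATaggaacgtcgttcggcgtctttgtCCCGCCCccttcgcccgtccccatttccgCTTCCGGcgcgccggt

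Of the same pathway, 3 genes outside the symbol rule fell. Of 6 assembly genes of complex III, 1 fell, Bcs1l, which inserts the Rieske protein, at 309, 285 and 345 in Stat3C, against 222, 249 and 231 in Stim1KO Stat3C (-0.42, SE 0.11, adjusted p = 0.0490). Of 17 further tested subunit and assembly genes of complex IV, 2 fell. Coa5, an assembly factor, stood at 3426, 3326 and 3530 and at 2973, 3091 and 2972 (-0.19, SE 0.05, adjusted p = 0.0455), and Higd2a, which helps supercomplexes form, at 910, 862 and 968 and at 723, 767 and 760 (-0.28, SE 0.07, adjusted p = 0.0392). The calls were 16.7% and 11.8% of the 2 lists, beside 4.96% of all genes, and the medians were -0.11 and -0.07. With edgeR, Higd2a was called and Bcs1l (adjusted p = 0.0514) and Coa5 (adjusted p = 0.0519) were not. Bcs1l was called in 6, Coa5 in 8 and Higd2a in 11 of 18 alternatives, and each lost its call when any library other than Stat3C replicate 2 was left out. Of 6 further genes of the ATP synthase, 0 were called in limma and edgeR, with 2 lower at an unadjusted p of 0.05 and 2 lower with DESeq2, and the median was -0.19. Complex II, the succinate dehydrogenase, had 0 of 4 genes called in limma and edgeR, with 1 lower at an unadjusted p of 0.05 and 1 lower with DESeq2, and its median was -0.04. Of 6 subunit genes of mitochondrial DNA looked up by symbol, 0 had a row, so they were not analysed here.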

How the data were processed

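Poly(A) RNA of 6 libraries, 3 per genotype, was sequenced after a stranded preparation, per the labels' protocols. DESeq2 1.22.2, TopHat2 2.1.1, HTSeq 0.11.1 and mm10 as the genome build appear in the submitters' processing notes. Gene models and counting settings are not stated there. The authors deposited a normalised signal per gene and library, which is a read count divided by a step of that library: 100% of the values were whole multiples of it to within 0.01, and dividing by it recovered whole reads. The step of Stim1KO Stat3C replicate 3 (0.995) lies close to 1. Values in that library such as 17.913 for Cox7a1 and 55.729 for Cox6b2 are nevertheless not whole numbers, and 100% were whole multiples of the step. A value of 0 allows up to 3 reads, 1.30 to 4.11 normalised counts, which covers counting error only. Of 23420 rows, 27 with symbols turned into dates (at most 0.217% of reads) were left out.

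Genes with a mean of at least 10 (11947) were tested in limma on log2(value + 1), two-sided, with a trend in the prior variance and without covariates. P-values were adjusted by Benjamini and Hochberg over these genes, and 0.05 was the threshold. edgeR and DESeq2 on recovered reads were alternatives, beside other pseudocounts, filters, scalings and left-out libraries. The steps were tested on simulated data. The 52 genes and all lists were chosen with earlier results of these data known. Genes described are those past the threshold, in each class the most abundant, the 2 next by adjusted p and any with a positive fold change, isoform families, the lowest genes, and called genes of the other lists. Further genes were added to complete a class. Positions come from GENCODE mouse release 21, which held all 52 genes, and promoters from RefSeq. Versions were R 4.3.3, limma 3.58.1, edgeR 4.0.16, and 1.42.0 for DESeq2. Replicates were numbered in accession order.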

Additional observations from a re-analysis of the deposited data

How the results depend on the processing

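The medians of the 4 classes and of the 52 genes stayed negative in all 18 alternatives. The counts of calls did not keep their size. Over all genes 1623 were called, against 827 with limma without a trend, 3959 with library quality weights, 922 with edgeR without Stim1KO Stat3C replicate 3, and 617 to 2899 with 1 library left out. Of the 52 genes 8 were called lower, against 1, 17 and 4 in those 3 fits, 13 with DESeq2 and 1 to 12 with 1 library left out. For complex III the count of 4 became 0 without a trend, 2 with edgeR without that replicate and 0 to 5 with 1 library left out. For the complex IV subunits the count of 3 became 1 in both of these fits and 1 to 3 with 1 library left out. For the assembly genes the count of 1 became 0 without a trend, 0 to 2 with 1 library left out, and 2 with a filter at a mean of 50, TMM, quantile normalization, DESeq2, quality weights and Xist as a covariate. For the ATP synthase the count of 0 became 2 with quantile normalization, 2 with DESeq2, 4 with quality weights and 0 to 1 with 1 library left out. Quality weights, the Xist covariate and edgeR without that replicate were chosen after seeing the data. Fewer libraries leave fewer degrees of freedom; the cause of the other shifts was not tested.

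The sign turned in 16 of the 52 genes in at least 1 alternative, none of them called in the reported fit. Uqcrh became -0.0016 with DESeq2 and -0.034 with edgeR without Stim1KO Stat3C replicate 3. Sco1 became -0.023 and Cox19 -0.017 with quantile normalization, and -0.00078 and -0.0050 with DESeq2. With quality weights Cox19 became -0.061, Cox7a1 0.012, Cox6b1 0.023, Cox6a1 0.049, Cox18 0.014, Atp5j2 0.051 and Atp5l 0.020, and with edgeR without that replicate Cox19 became -0.021. With 1 library left out, the range crossed 0 for Uqcrh (-0.023 to 0.043), Cox7a1 (-0.16 to 0.015), Cox5a (-0.060 to 0.019), Cox6b1 (-0.052 to 0.0057), Cox6a1 (-0.052 to 0.032), Sco2 (-0.36 to 0.092), Cox20 (-0.14 to 0.010), Cox14 (-0.045 to 0.0078), Surf1 (-0.040 to 0.0082), Sco1 (-0.068 to 0.075), Cox19 (-0.024 to 0.048), Atp5e (-0.050 to 0.051), Atp5k (-0.20 to 0.010), Atp5j2 (-0.074 to 0.026) and Atp5l (-0.073 to 0.050). No paired analysis was possible because the labels carry no replicate numbers shared by the groups. With 3 libraries a group, no gene of the 52 with a log2 change smaller in size than 0.20 was called in the reported fit.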

Other observations

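Lyrm7, a chaperone of the Rieske protein of complex III, varied between libraries more than its group. It stood at 60.6, 171 and 184 normalised counts in Stat3C and at 155, 47.2 and 73.6 in Stim1KO Stat3C, with a log2 fold change of -0.60 (SE 0.52, limma adjusted p = 0.467). Atpif1, the inhibitor that stops the ATP synthase from running backwards, stood at 1937, 2522 and 2099 and at 1746, 1700 and 1832. Its groups did not overlap, and its log2 fold change of -0.30 had an adjusted p of 0.0721. Tmem70, which helps assemble the subunit c ring, stood at 1288, 1128 and 1248 and at 982, 940 and 1124, also without overlap (-0.27, adjusted p = 0.0822). Smim20 (1810013D10Rik in the table), an assembly gene of complex IV, ran the other way, at 546, 575 and 543 and at 668, 613 and 734 (0.27, adjusted p = 0.0776). These 4 genes were named after their values were seen.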
